A study of Mus musculus with 17 samples.

Results

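The regions described here are the Tcf1 peaks of splenic CD8 T cells that lie in chromatin marked by H3K4me3 in each thymocyte group of the series and free of H3K27me3. H3K4me3 islands of 3 groups were merged where they shared 1 bp or more, and the 6019 merged regions with an island of all 3 groups were kept, of 76060 in all. A Tcf1 peak was included if it overlapped such a region and overlapped no H3K27me3 island of any group. This gave 2226 of the 7807 Tcf1 peaks (28.5%, exact 95% interval 27.5 to 29.5), here called constitutive-region peaks. They lay in 2070 different H3K4me3 regions. The peaks were chosen by the presence of H3K4me3 and the absence of H3K27me3, so neither is a finding about them. H3K27ac, H3K9ac and peak score played no part in the choice. Choice by overlap bears on peak width and place, since a wider peak meets a region more readily. Such regions are promoter-like by their mark, but their place relative to genes was not analysed here.

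Tcf1, the product of Tcf7, and its relative Lef1 are transcription factors of T cells that bend DNA through a high-mobility-group domain, bind beta-catenin or Groucho-type corepressors, and are required for early T cell development and for CD8 T cell identity and memory. H3K4me3 is laid down around active and poised transcription start sites. H3K27ac and H3K9ac mark active promoters, and H3K27ac also marks active enhancers. H3K27me3 is the mark of Polycomb silencing.

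The thymocyte groups were DKO CD8 (CD8 cells of Tcf1-/-Lef1-/- mice, both genes deleted by CD4-Cre), WT CD4 (wild-type CD4 cells) and WT CD8 (wild-type CD8 cells). The sort took mature CD8 thymocytes by high TCRβ and by the absence of CD69 and CD24. WT CD4 carries a phenotype label for CD8 cells although it is titled CD4, and it was grouped by its title. CD4-Cre acts once thymocytes have switched on CD4, so deletion follows the early stages of development. The Tcf1 peaks came from TCRβ-high CD8 T cells of wild-type spleen, with the same precipitation from Tcf1-deficient cells as the control per the labels. The binding map and the histone maps therefore come from different organs. Neither the age of the mice nor any pooling of animals is stated in the labels.

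With 1 library for each mark in a group, differences between groups could not be set against replicates, no test was possible and no p-value is given. Intervals are exact (Clopper-Pearson) at 95% and cover counting error only. Reads within islands, the enriched intervals the authors called, numbered 611691 to 952636 for H3K4me3, 1959297 to 2505720 for H3K27ac and 248234 to 1058430 for H3K9ac. The WT CD8 H3K27ac list stood apart by its many weak islands, and reads per kb of H3K27ac island were 33.1 in DKO CD8, 39.1 in WT CD4 but 24.6 in WT CD8. It held 56985 islands over 83.5 Mb, against 29636 over 59.1 Mb in DKO CD8 and 24476 over 64.2 Mb in WT CD4. H3K9ac islands covered 11.5 Mb in DKO CD8, 45.6 Mb in WT CD4 and 13.5 Mb in WT CD8.

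Constitutive-region peaks were wide but not high in score. Their median authors' score was 75.1 (quartiles 60.7 and 101, range 50.03 to 470.3), close to the 76.4 of all peaks and below the 85.1 of peaks in H3K27ac islands without H3K4me3. A score of at least 100 was reached by 25.9% of them (24.1 to 27.8), against 38.8% (37.0 to 40.6) of the H3K27ac peaks without H3K4me3. Their median width was 491 bp, against 399 bp in that class, 446 bp for peaks in H3K4me3 of 1 or 2 groups, and 255 bp for peaks in none of these marks. All these classes rest on overlap, which a wide peak meets more readily, so the widths are a description. Score and width were related among the constitutive-region peaks (Spearman's rho 0.54 over 2226 peaks of 1 library). Score went with neither high nor low H3K4me3 around the peak, with rho of 0.03, -0.02 and 0.02 against H3K4me3 reads per kb in DKO CD8, WT CD4 and WT CD8.

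Regions on chromosome 18 are not named. The strongest constitutive-region peak, with a score of 470.3, lay on chromosome 6 from 17015019 to 17016121 (mm9, as are all coordinates here). Its H3K4me3 region held 31 reads in DKO CD8, 54 in WT CD4 and 17 in WT CD8, and its H3K27ac region held 201, 361 and 75 reads in the same order. H3K9ac gave 52 reads in DKO CD8, 81 in WT CD4 and 30 in WT CD8. All 3 active marks were thus called there in every group. The second, on chromosome 19 from 43749148 to 43750178 (score 456), had 234 H3K27ac reads in DKO CD8, 234 in WT CD4 and 41 in WT CD8. The third, on chromosome 5 from 130292646 to 130293497 (score 426), had 183, 224 and 32. Both also had H3K9ac islands in each group, with 30 to 81 reads in the second and 28 to 75 in the third. The fourth, on chromosome 6 from 124690816 to 124691821 (score 421), had 54 H3K9ac reads in WT CD4 and no H3K9ac island in DKO CD8 or WT CD8, although all 3 groups had H3K27ac there (156, 267 and 55 reads in DKO CD8, WT CD4 and WT CD8). The fifth, on chromosome 8 from 74660482 to 74661285 (score 418), overlapped the edge of its H3K4me3 region and sat in a 9000 bp H3K27ac region with 534 reads in DKO CD8, 467 in WT CD4 and 90 in WT CD8.

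The 3 peaks with the lowest scores also lay in H3K27ac regions of all 3 groups. The lowest score, 50.03, was shared by a peak on chromosome 11 from 84631645 to 84631963 and one on chromosome 17 from 4995532 to 4995788. The H3K27ac region of the first held 350 reads in DKO CD8, 253 in WT CD4 and 69 in WT CD8. That of the second held 334, 391 and 81. The next, on chromosome 5 from 106129328 to 106129850 (score 50.04), had 126 H3K27ac reads in DKO CD8, 181 in WT CD4 and 41 in WT CD8, and H3K9ac islands in WT CD4 (59 reads) and WT CD8 (21 reads) only.

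Most peaks lay inside their H3K4me3 region rather than at its rim. Of the 2226 peaks, 72.6% (70.6 to 74.4) lay wholly within the region, and 6.47% (5.48 to 7.57) had a midpoint outside it. The midpoint was a median of 300 bp from the region's centre (quartiles 142 and 510 bp), in regions whose median width was 1400 bp. The central 50% of the region held 58.6% of midpoints (56.5 to 60.6). That share was 39.4% (34.8 to 44.1) in regions up to 1000 bp, 65.5% (62.8 to 68.0) in regions of 1200 to 2000 bp and 57.9% (53.3 to 62.4) in regions over 2000 bp. The choice of peaks by overlap of at least 1 bp bears on their place, so these shares are a description. The smallest overlaps were 9, 11 and 19 bp (scores 68.1, 85.1 and 61.5), and the nearest peaks left out without H3K27me3 lay 0, 1 and 3 bp from such a region (scores 138, 83.6 and 147). An overlap under 200 bp was found for 134 of the 2226 peaks, and 44 peaks were left out with a gap under 200 bp.

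**Figure D1:**
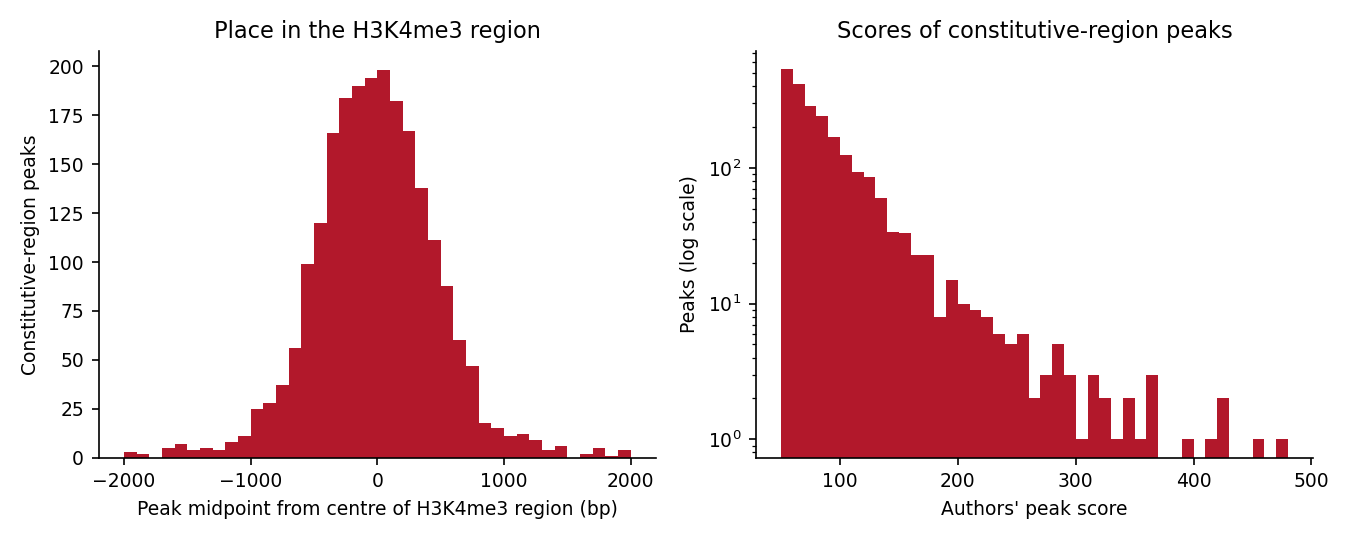
Left, number of constitutive-region peaks by the distance of the peak midpoint from the centre of its H3K4me3 region in bp (5 peaks at 2000 bp or more are drawn in the outermost bars). Right, number of these peaks, on a log axis, by authors' score. The distances centre on 0 with a median absolute value of 300 bp, and the scores fall off from 50 to a single peak at 470.3.

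H3K27ac, which the choice of peaks did not use, was present at nearly all of these peaks in DKO CD8 and WT CD4 and at fewer in WT CD8. Islands of DKO CD8 held 99.4% of constitutive-region peaks (2212 of 2226, 98.9 to 99.7), those of WT CD4 99.8% (2221, 99.5 to 99.9) and those of WT CD8 85.7% (1907, 84.1 to 87.1). With only islands above the median reads of their list, the shares were 97.3%, 94.4% and 70.3% in DKO CD8, WT CD4 and WT CD8, which turned the order of the first 2 groups. Over all Tcf1 peaks the shares were 74.8%, 81.5% and 55.8% in DKO CD8, WT CD4 and WT CD8. Peaks in H3K4me3 of 1 or 2 groups came closest, with 91.5%, 95.3% and 60.2%.

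H3K9ac entered the definition of no class of peak. Its islands held 69.7% of constitutive-region peaks in DKO CD8 (67.8 to 71.6), 95.9% in WT CD4 and 56.8% in WT CD8 (54.7 to 58.9). Peaks in H3K27ac islands without H3K4me3 had 6.76% (5.86 to 7.75), 22.3% (20.8 to 23.9) and 5.06% (4.28 to 5.93) in the same groups. In both classes the H3K9ac share was highest in WT CD4 and lowest in WT CD8. With the H3K9ac lists trimmed to equal covered length, the shares at constitutive-region peaks were 69.7% in DKO CD8, 80.9% in WT CD4 and 56.5% in WT CD8, in the same order.

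**Figure D2:**
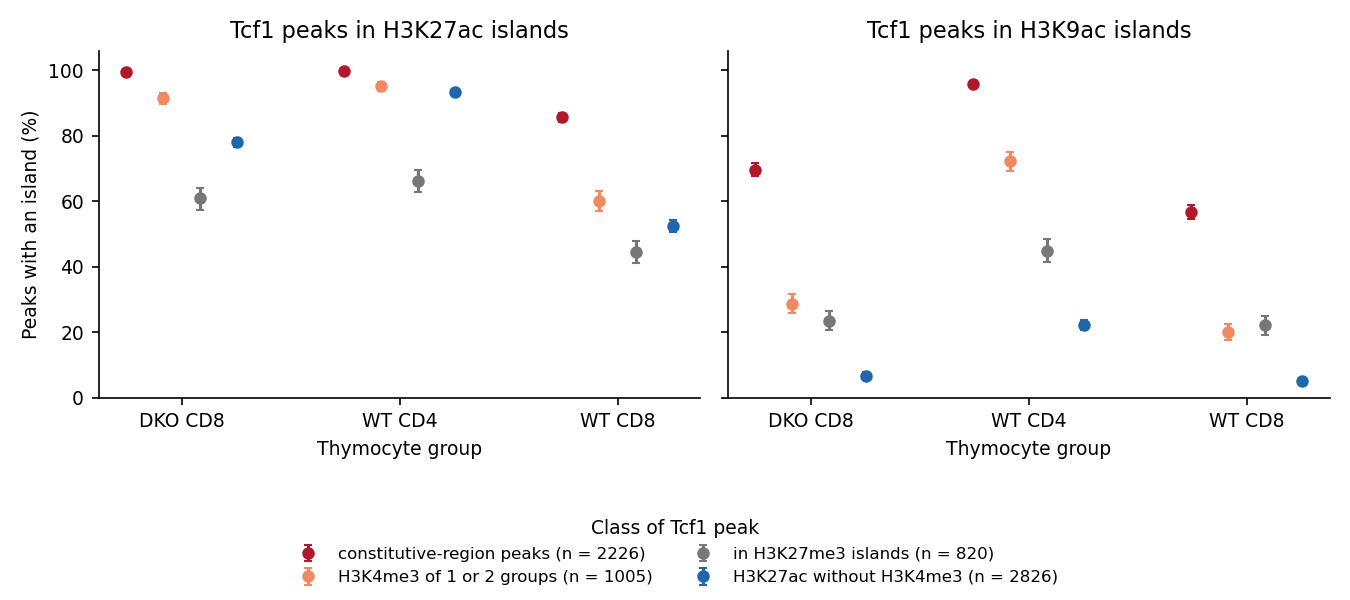
Share of Tcf1 peaks in percent with an H3K27ac island (left) or H3K9ac island (right) in DKO CD8, WT CD4 and WT CD8, by class of peak. Points are shares and bars exact 95% intervals for counting error. Constitutive-region peaks are the highest class in each group for both marks, from 56.8% (H3K9ac, WT CD8) to 99.8% (H3K27ac, WT CD4).

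Taking the acetylation marks together, 45.1% of constitutive-region peaks (1003 of 2226, 43.0 to 47.2) had islands in all 6 H3K27ac and H3K9ac lists, against 1.56% of peaks in H3K27ac islands without H3K4me3 and 16.5% of all peaks. Only 1 had none. This peak, on chromosome 11 from 48669767 to 48670684 with a score of 104.6, lay at the end of a 1200 bp H3K4me3 region with 22 reads in DKO CD8, 18 in WT CD4 and 15 in WT CD8. For H3K9ac, 1030 peaks were called in all 3 groups, 505 in DKO CD8 and WT CD4 but not in WT CD8, 388 in WT CD4 alone, 212 in both WT CD4 and WT CD8 but not DKO CD8, and 59 in none. These were 46.3%, 22.7%, 17.4%, 9.52% and 2.65% of constitutive-region peaks, against 16.9%, 10.1%, 17.8%, 4.75% and 47.9% of all peaks, so the share called in WT CD4 alone was near that of all peaks. The others were called in WT CD8 alone (15, or 0.674%, against 1.02% of all peaks), in DKO CD8 alone (10, or 0.449%, against 1.23%) or in both CD8 groups but not WT CD4 (7, or 0.314%, against 0.231%).

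Differences in calls between DKO CD8 and WT CD8 ran mainly one way, at these peaks as over all Tcf1 peaks. For H3K27ac, 308 constitutive-region peaks (13.8%, 12.4 to 15.3) had an island in DKO CD8 and none in WT CD8, and 3 (0.135%) the reverse. Over all Tcf1 peaks these calls were made at 21.5% and 2.61%. Of the 308, 305 also had a WT CD4 island, as did 1502 of 1681 among all Tcf1 peaks with these calls, and WT CD4 islands held 99.8% of constitutive-region peaks in any case. An H3K27ac island in WT CD4 and none in WT CD8 was found at 315 (14.2%, 12.7 to 15.7), against 26.9% of all peaks, and the reverse at 1, against 1.26%. For H3K9ac, 515 (23.1%, 21.4 to 24.9) had an island in DKO CD8 and none in WT CD8, and 227 (10.2%, 8.97 to 11.5) the reverse, against 11.3% and 5.78% of all peaks. H3K9ac in WT CD4 and not in WT CD8 was found at 893 (40.1%, 38.1 to 42.2), against 27.9% of all peaks, and the reverse at 22 (0.988%), against 1.26%. These H3K9ac shares also count peaks without any H3K9ac island, which were 47.9% of all peaks. Among peaks with a WT CD4 island, 893 of 2135 constitutive-region peaks lacked one in WT CD8, a smaller part than 2178 of 3872 over all peaks. Among those with a DKO CD8 island it was 515 of 1552, also a smaller part than 886 of 2227. All comparisons with WT CD8 share its library.

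Peaks without a WT CD8 H3K27ac island lay in weaker chromatin in the other groups too. For the 318 of these 319 peaks that lay in an H3K27ac region, the median H3K27ac level was 32.5 reads per kb in DKO CD8 and 41.8 in WT CD4. At the 1907 with a WT CD8 island it was 53.8 in DKO CD8 and 67.0 in WT CD4. H3K4me3 differed less, at 21.7 and 26.7 reads per kb in DKO CD8 for peaks without and with the WT CD8 H3K27ac island, and 22.5 and 23.8 in WT CD8. The median score was 70.1 without and 75.9 with it. The part that the many weak islands of the WT CD8 list play in these missing calls was not tested.

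The H3K4me3 regions around the peaks were then set beside the 3077 regions of all 3 groups that held neither a Tcf1 peak nor an H3K27me3 island. Both sets had a median width of 1400 bp, with an upper quartile of 2000 bp for the 2070 with a peak and 1800 bp for those without. Median H3K4me3 levels were slightly higher with a peak, at 25.6 against 24.0 reads per kb in DKO CD8, 40.8 against 38.6 in WT CD4, and 23.6 against 22.5 in WT CD8. For H3K27ac the gap was wider. Regions with a peak and islands in all 3 groups had 52.5 reads per kb in DKO CD8, 65.0 in WT CD4 and 15.8 in WT CD8, and those with constitutive H3K4me3 and no peak 42.3, 54.1 and 13.6. H3K9ac gave 22.5, 37.3 and 12.7 with a peak and 20.6, 33.3 and 12.5 without one. In each of the 9 library comparisons the median was higher with a Tcf1 peak, and in each the quartiles overlapped.

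**Figure D3:**
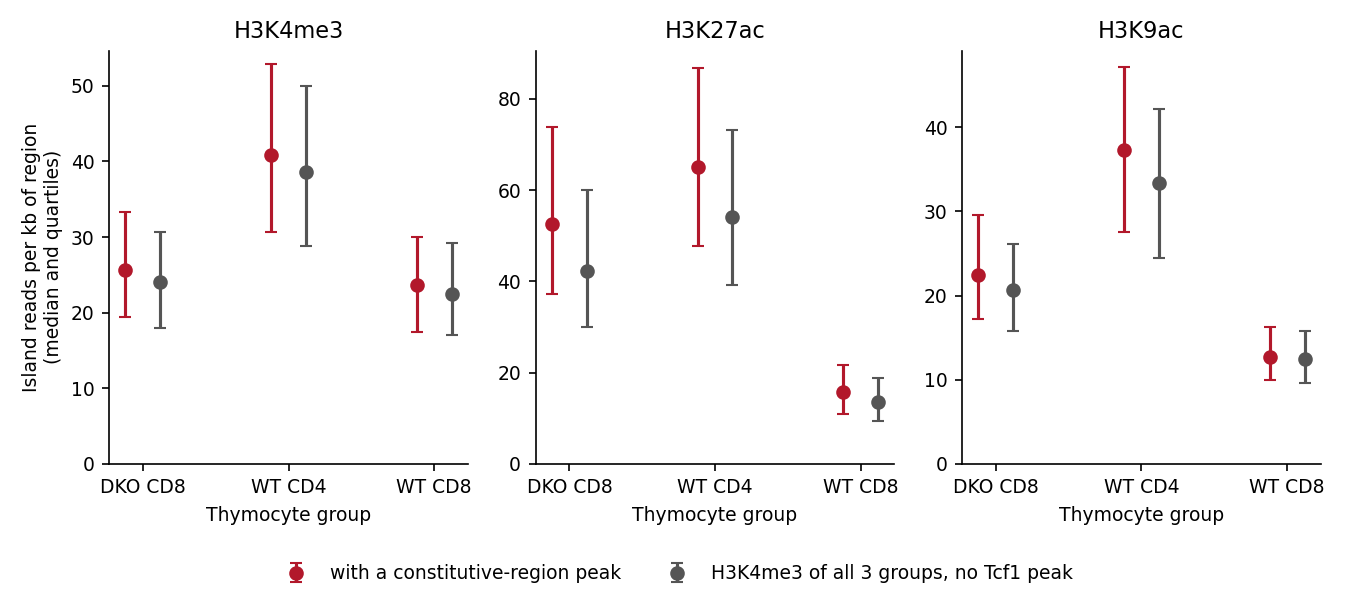
Reads in islands per kb of merged region for H3K4me3, H3K27ac and H3K9ac in DKO CD8, WT CD4 and WT CD8, at regions of all 3 groups with a constitutive-region peak and at those with constitutive H3K4me3 and no Tcf1 peak. Points are medians over regions and bars the quartiles; libraries are not scaled to one another, so only the 2 points within a group may be compared. The H3K27ac medians are 52.5 and 42.3 for DKO CD8, 65.0 and 54.1 for WT CD4, and 15.8 and 13.6 for WT CD8.

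Acetylation islands were found at a larger share of the regions with a peak. H3K9ac islands overlapped 71.3% (69.3 to 73.2) of regions with a peak and 55.8% (54.0 to 57.5) of those without in DKO CD8. The shares with and without a peak were 97.1% and 93.7% for WT CD4, and 61.5% and 48.2% for WT CD8. For H3K27ac in WT CD8 the shares were 88.5% (87.0 to 89.8) and 77.3% (75.8 to 78.8). In DKO CD8 and WT CD4 H3K27ac was close to saturated, at 99.7% and 98.0% in DKO CD8 with and without a peak, and 99.8% and 98.4% in WT CD4.

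The share of regions with a constitutive-region peak was larger where H3K4me3 was stronger, so the acetylation shares were also taken within 4 bins of near equal size by the summed H3K4me3 reads of the 3 groups, a split chosen after the values above had been seen. A constitutive-region peak lay in 28.8% of regions (26.4 to 31.4) with 32 to 89 reads, 36.9% with 90 to 118, 42.8% with 119 to 159 and 52.4% (49.6 to 55.1) with 160 to 777. H3K9ac islands of DKO CD8 were found in 45.0% of the weakest regions with a peak and 34.6% of those without, and in 91.7% and 83.2% of the strongest. In WT CD8 the values were 31.0% and 24.9% in the weakest, and 82.8% and 76.3% in the strongest. H3K27ac of WT CD8 gave 74.7% and 64.4% in the weakest, and 96.7% and 91.8% in the strongest. For these 3 lists the share was higher with a peak in each of the 4 bins. The part of region width within a bin was not tested.

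**Figure D4:**
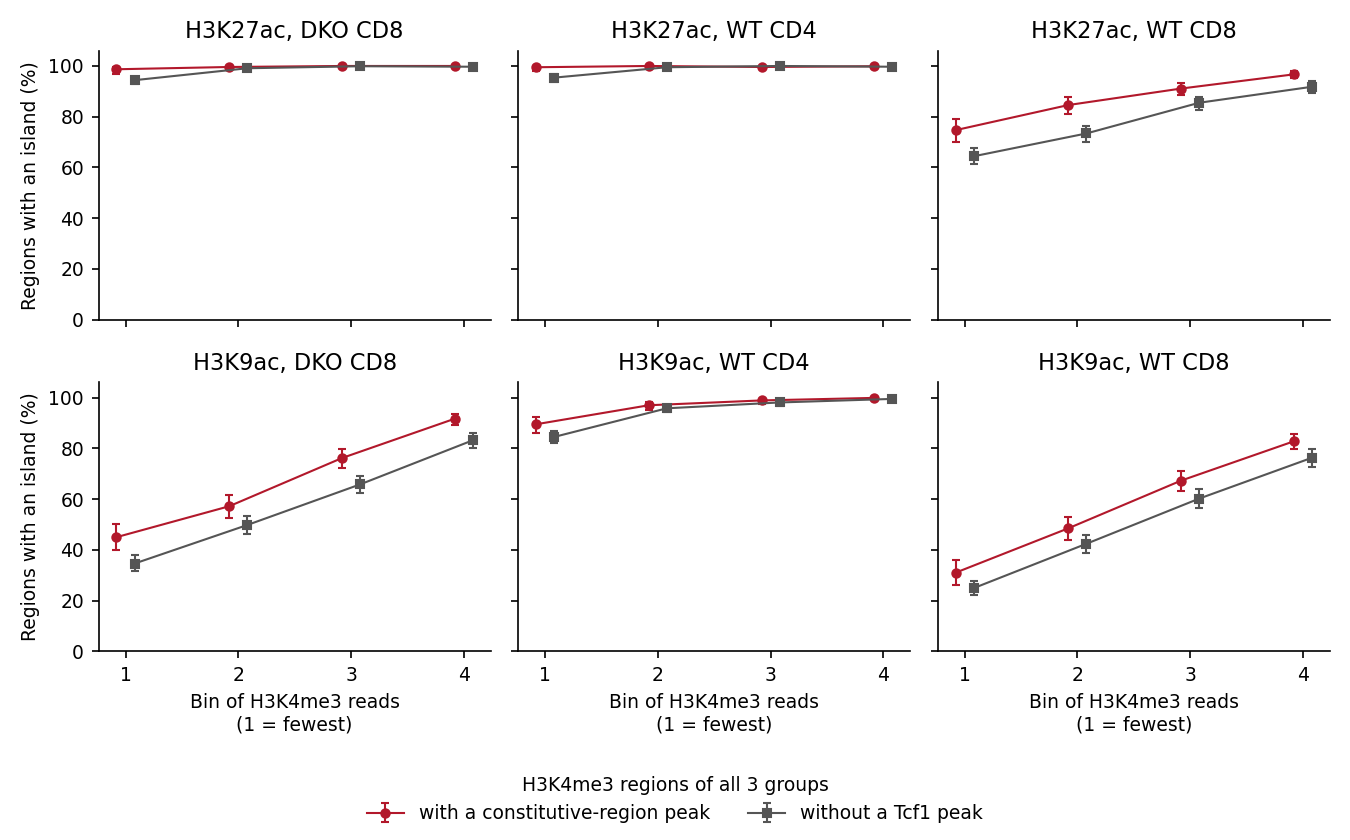
Share in percent of H3K4me3 regions of all 3 groups with an H3K27ac island (top) or H3K9ac island (bottom), by 4 bins of summed H3K4me3 reads and by thymocyte group, for regions with a constitutive-region peak and regions without a Tcf1 peak. Bars are exact 95% intervals for counting error. Shares climb with H3K4me3 strength in WT CD8 and for H3K9ac in DKO CD8, for which they run from 45.0% to 91.7% with a peak and from 34.6% to 83.2% without.

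Loss of Tcf1 and Lef1 was addressed by comparing DKO CD8 with WT CD8 at regions called in both, with the log2 ratio of island reads centred on its median over all such regions. H3K27ac at the 1834 regions with a constitutive-region peak had a median of 0.31 (quartiles -0.03 and 0.65), against 0.00 by construction over all 10894 regions, and 73.1% of them lay above 0. In DKO CD8, 204 were higher by 2-fold or more (11.1%, 9.72 to 12.7), against 8.19% of all regions. Another 29 were lower by 2-fold or more (1.58%, 1.06 to 2.26), against 15.1% of all regions. Regions with constitutive H3K4me3 and no Tcf1 peak had a median of 0.23, with 10.2% higher and 3.45% lower. Regions with peaks of the H3K27ac class without H3K4me3 had a median of -0.12, with 7.96% higher and 15.7% lower. The medians of H3K4me3 regions with and without a Tcf1 peak were thus nearer to each other than those of the 2 kinds of region with a Tcf1 peak, with no test of either difference. On total island reads the median at constitutive-region peaks would be 1.84 rather than 0.31, since the centre itself lay at 1.46. H3K27ac regions of the 3 groups with a constitutive-region peak were deeper than all such regions. Their median reads were 145 against 98 in DKO CD8, and 42 against 33 in WT CD8. The part of depth in the 2-fold shares was not tested.

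The place of the H3K9ac ratio of DKO CD8 to WT CD8 depended on the filter and the scaling. The 1056 regions had a median of 0.05, which was 0.27 for the 152 with at least 50 reads in either library after scaling. On total island reads it was 0.65. As centred, 44 (4.17%) were at least 2-fold higher and 24 (2.27%) lower, against 3.88% and 3.63% of all 2811 regions. Regions with constitutive H3K4me3 and no Tcf1 peak had a centred median of -0.05, with 3.21% higher and 4.09% lower. For H3K4me3, which the choice of peaks used, the median was 0.06, with 6.71% higher and 4.54% lower, beside 5.90% and 7.42% of all 7614 regions, and nothing is read from these.

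Single regions were ranked only where either library of the pair held at least 100 reads. The 1308 H3K27ac regions that met this included, at the extremes, several with a short island in 1 library. Highest in DKO CD8 was a 7400 bp region on chromosome 5 from 138185201 to 138192600 with 1 peak (score 111). It held 233 reads in DKO CD8, 269 in WT CD4 and 13 in WT CD8, whose island spanned 0.6 kb (log2 ratio 2.70, 1.90 to 3.64). The next, on chromosome 11 from 117513201 to 117518000, held 228, 210 and 17 reads (2.29, 1.58 to 3.09). In both the DKO CD8 and WT CD4 counts lay near each other and WT CD8 stood apart. Lowest were neighbouring regions on chromosome 4. The first, from 88427601 to 88435800, held 83 reads in DKO CD8, 280 in WT CD4 and 207 in WT CD8 (-2.78, -3.16 to -2.40). The second, from 88447201 to 88453000, held 110, 210 and 146 (-1.87, -2.24 to -1.50). In the first, DKO CD8 islands spanned 2.4 kb, against 7.2 kb in WT CD4 and 6.8 kb in WT CD8. By raw reads and span DKO CD8 stood apart there. The centred ratio of WT CD4 over WT CD8 was also low, at -1.45 (-1.71 to -1.18), so centring places WT CD4 below WT CD8 too. An interval here covers the island reads alone, since what a library holds beyond its islands is unknown.

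For H3K9ac only 67 regions met the limit of 100 reads, and over all 1056 the ratio ran from -2.08 to 2.05. Of the 67, highest in DKO CD8 were chromosome 3 from 96361001 to 96366400 (136 reads in DKO CD8, 130 in WT CD4 and 29 in WT CD8, log2 ratio 1.45, 0.87 to 2.08) and chromosome 5 from 65193801 to 65199200 (151, 112 and 35 reads, 1.33, 0.79 to 1.91). Lowest were chromosome 4 from 149069601 to 149078200 (120, 190 and 122 reads, -0.80, -1.18 to -0.43) and chromosome 5 from 124477801 to 124485800 (150, 302 and 137 reads, -0.65, -0.99 to -0.30). In these last, the raw counts of DKO CD8 and WT CD8 were near equal and the sign comes from the centring at 0.78. For H3K4me3 the highest of 69 was chromosome 11 from 52086801 to 52090400, with 100 reads in DKO CD8, 48 in WT CD4 and 22 in WT CD8 (2.11, 1.43 to 2.85). The lowest was the 8200 bp region on chromosome 1 from 87542201 to 87550400, with 94, 104 and 199 reads (-1.16, -1.53 to -0.80). That region was also the widest, and outside chromosome 18 it had the most WT CD8 H3K4me3 reads of those with a peak. It had H3K27ac islands in DKO CD8 and WT CD8 but none in WT CD4, and no H3K9ac island.

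WT CD4 was compared with WT CD8 in the same way, as the difference between the lineages, with the same WT CD8 library below the line. H3K27ac at 1832 regions with a constitutive-region peak had a median of 0.18, with 5.08% (4.12 to 6.18) at least 2-fold higher and 1.20% (0.754 to 1.81) lower, against 6.33% and 13.6% of all regions. Regions with constitutive H3K4me3 and no Tcf1 peak came close, with an H3K27ac median of 0.14, 6.62% higher and 3.18% lower. The part of depth in these H3K27ac shares was not tested either. H3K9ac had a median of 0.27 over 1258 regions, with 8.35% higher and 2.70% lower, against 6.36% and 11.4%. Regions with constitutive H3K4me3 and no peak had an H3K9ac median of 0.07, with 7.16% higher and 4.96% lower. The H3K9ac median at constitutive-region peaks was 0.59 for the 240 regions with at least 50 reads in either library after scaling. It turned to -0.61 when libraries were divided by total island reads. H3K4me3 gave a median of 0.10, with 7.49% higher and 3.33% lower beside 6.17% and 8.10% of all regions, from which nothing is read.

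The region on chromosome 5 from 138185201 to 138192600 was again the highest for H3K27ac (2.49, 1.69 to 3.41), followed by chromosome 1 from 52173201 to 52177800, with 102 reads in DKO CD8, 224 in WT CD4 and 11 in WT CD8 (2.46, 1.60 to 3.49). The lowest was chromosome 16 from 38712201 to 38721400, with 242, 351 and 268 reads (-1.50, -1.73 to -1.26). WT CD4 had more raw reads there than WT CD8, so the sign comes from the centring at 1.89. For H3K9ac the highest were chromosome 11 from 84682601 to 84685000, with 75, 131 and 11 reads (2.36, 1.48 to 3.40), and chromosome 4 from 141101001 to 141103000, with 78, 121 and 11 (2.25, 1.36 to 3.29). Both had WT CD8 islands of only 0.4 kb. The lowest was chromosome 3 from 106838401 to 106841200, with 93 reads in DKO CD8, 100 in WT CD4 and 67 in WT CD8 (-0.63, -1.09 to -0.16), where the sign comes from the centring at 1.21. For H3K4me3 the highest was chromosome 16 from 76372401 to 76374400, with 58, 102 and 15 reads (2.08, 1.29 to 2.97).

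DKO CD8 and WT CD4 were compared without WT CD8 reads, although WT CD8 islands helped to set the regions and to choose the peaks. These groups seldom differed by 2-fold in H3K27ac at these peaks. Of 2051 regions, 16 (0.780%, 0.447 to 1.26) were higher in DKO CD8 by 2-fold or more and 20 (0.975%, 0.597 to 1.50) lower. Over all 16264 regions the shares were 4.32% and 7.29%. The median at these peaks was 0.11, and also 0.11 with islands of only the 2 libraries merged. Regions with peaks of the H3K27ac class without H3K4me3 had 5.41% higher and 16.6% lower, with a median of -0.24. Regions with constitutive H3K4me3 and no peak had 1.52% and 1.83%. For H3K9ac, 1.50% of 1468 regions were higher and 3.95% lower, against 6.07% and 3.43% of all, with a median of -0.09. Regions with constitutive H3K4me3 and no peak had 2.39% and 3.37%, with a median of -0.04. The median of -0.09 turned to 1.23, beyond 2-fold, when libraries were divided by total island reads, so no direction is read for H3K9ac here. H3K4me3 gave 3.38% higher and 3.77% lower, beside 6.08% and 4.35% of all regions, from which nothing is read. This pair differs in both lineage and genotype, which cannot be told apart here. H3K27ac regions of the 3 groups with a constitutive-region peak were deep, with medians of 145 reads in DKO CD8 and 178 in WT CD4, against 98 and 131 for all such regions. The part of depth in the small shares was not tested.

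**Figure D5:**
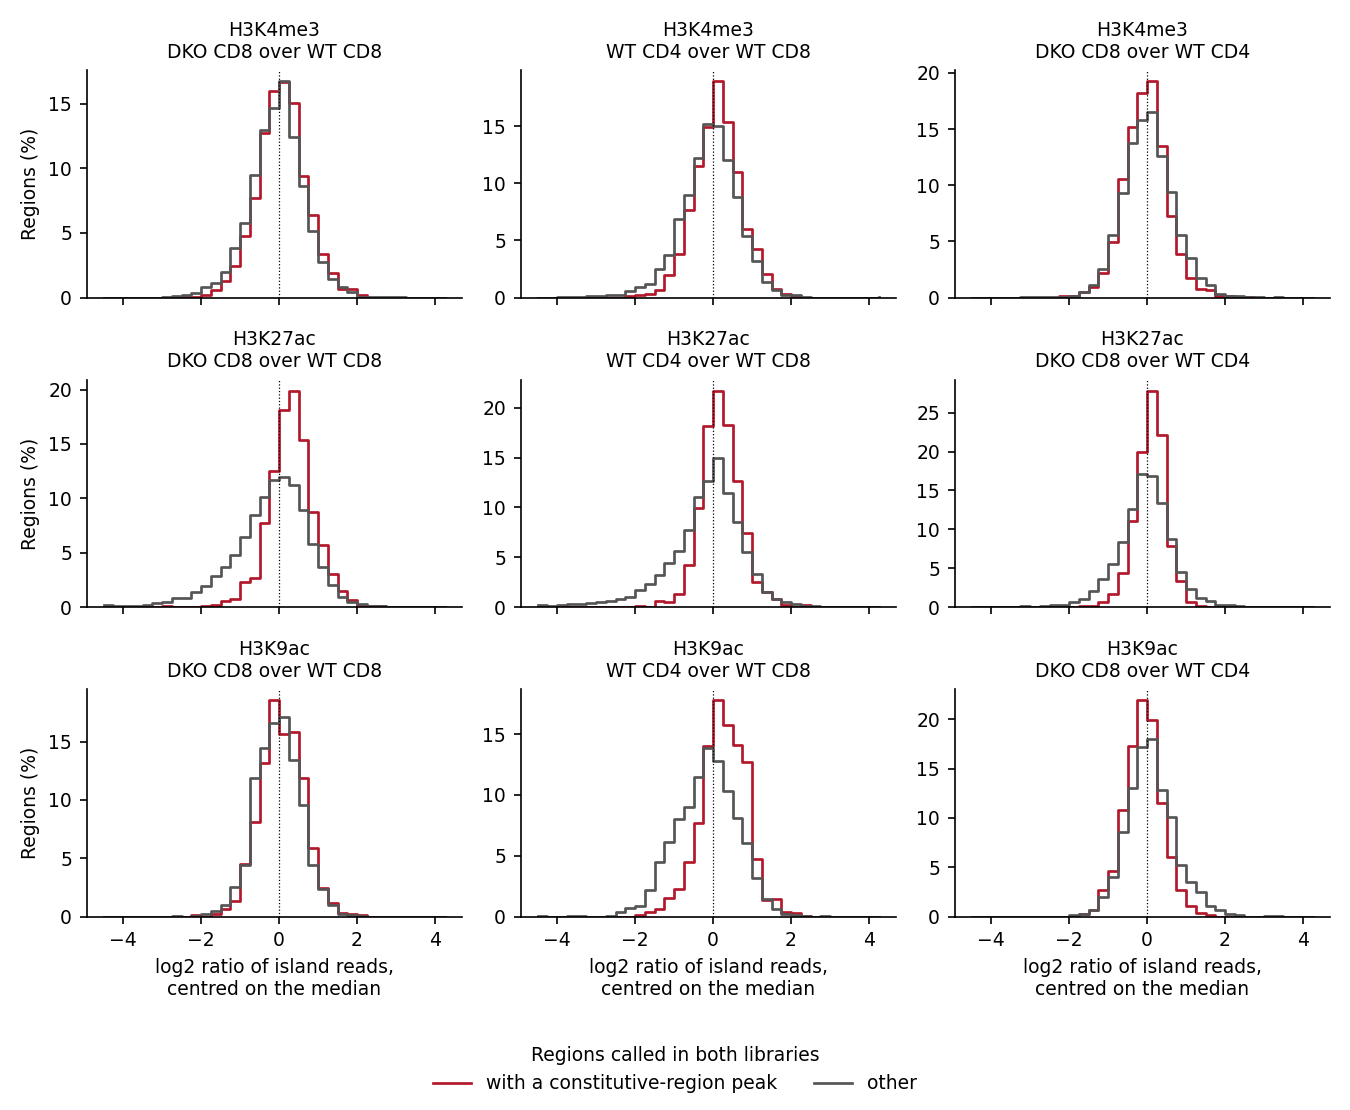
Distribution of log2 ratios of island reads, centred on the median of all regions called in both libraries, for 3 marks (rows) and 3 comparisons (columns), as percent of regions per bin. Regions with a constitutive-region peak are set against all other regions, and values beyond the axis are drawn in the outermost bins. For H3K27ac the regions with a peak have less of the lower tail of the others, with 1.58% against 15.1% of all regions at least 2-fold lower in DKO CD8 than in WT CD8. Regions with constitutive H3K4me3 and no Tcf1 peak, not drawn apart, had 3.45%. The part of read depth in these shares was not tested.

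Within the constitutive-region peaks, the H3K9ac share in DKO CD8 and WT CD8 was higher in the top score bin than in the bottom one. So was the H3K27ac share in WT CD8. In the top of 4 score bins (101 to 470.3), 71.1% of peaks (67.1 to 74.8) had an H3K9ac island in DKO CD8, 96.1% in WT CD4 and 60.7% (56.5 to 64.8) in WT CD8. In the bottom bin (50.03 to 60.7) these were 64.5% (60.4 to 68.5), 95.9% and 53.3% (49.1 to 57.5), so the intervals of the bins overlapped. In DKO CD8 the third bin, at 72.8%, stood above the top one. H3K27ac in WT CD8 was found at 88.0% (85.0 to 90.6) of the highest and 82.0% (78.5 to 85.1) of the lowest. H3K27ac in DKO CD8 stood at 99.1% in both bins, and in WT CD4 at 99.5% in the top and 100% in the bottom one. The DKO CD8 over WT CD8 H3K27ac ratio had a median of 0.32 at regions with a peak in the upper 50% of scores and 0.31 at those with none, and H3K9ac 0.05 and 0.03. Peak width went with score, with medians of 666 bp in the top bin and 373 bp in the bottom one, while the surrounding H3K4me3 region measured 1600 and 1400 bp. The part of peak width in the shares by score bin was not tested.

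Most regions held a single peak. Of the 2070 regions, 1924 held 1 constitutive-region peak, 139 held 2, 4 held 3 and 3 held 4. The 146 with more than 1 were wider (median 2000 bp, against 1400 bp for those with 1), with near equal H3K4me3 density (reads per kb of 26.6 and 25.1 for DKO CD8, 41.5 and 40.7 for WT CD4, and 22.9 and 23.6 for WT CD8). Neighbouring peaks in such a region had midpoints a median of 660 bp apart (quartiles 489 and 950 bp). The regions with 4 peaks were chromosome 17 from 4993801 to 4997000 (99 H3K4me3 reads in DKO CD8, 155 in WT CD4 and 63 in WT CD8), chromosome 13 from 17895001 to 17897800 (43, 165 and 72) and chromosome 12 from 92826601 to 92829200 (82, 71 and 33). The highest-scoring peaks in these regions had scores of 65.2, 116 and 89.6, in the same order. Of those with 3 peaks, the widest outside chromosome 18 was chromosome 8 from 11554601 to 11558800 (101, 187 and 94 reads), and the next, chromosome 7 from 107641201 to 107645000 (81, 160 and 55 reads), held a peak with a score of 286.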

How the data were processed

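ChIP-seq lists of 12 histone libraries and 1 Tcf1 library were used. Tools named in the submitters' processing notes, with no role given, are FastQC, Bowtie2 2.2.5, SICER 1.1 and MACS 1.4.2, on mm9. Each deposited histone list holds a raw read count for every island, on a grid of 200 bp. The authors' score, 50 or more for every Tcf1 peak in the deposited list, only ranked peaks within it. Whole-library depth is not stated, so depth here means reads in islands. Whether repeat sequencing runs were pooled is not stated either.

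Islands of a mark were merged over the 3 groups (1 bp), and reads were summed per region. Ratios used regions called in both libraries. All other peaks were put in 1 class, in the order H3K27me3, H3K4me3 of 1 or 2 groups, H3K27ac without H3K4me3, none. Named regions (chromosome 18 left out) were those with the highest and lowest scores, most peaks, greatest width, most WT CD8 H3K4me3 reads or no H3K27ac. Regions with extreme ratios over WT CD8 were also named, with a minimum of 100 reads in either library of the pair. Some of all these are given. The class, lists and rules were chosen with earlier results of these data known. No mm9 genome or annotation was used, so genes, sequences and the planned motif share are not reported. Overlaps equalled those of bedtools 2.31.1. The ratio step was run on simulated counts with changes well beyond 2-fold only, so that run does not bear on ratios as small as the medians given here. Python 3.11.15 was used with SciPy 1.17.1, pandas 2.3.3, numpy 2.4.6 and matplotlib 3.10.9.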

Additional observations from a re-analysis of the deposited data

How the results depend on the processing

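Of 68 alternative values for 18 results, 32 stayed within the 95% interval of the main share or median (for the number of peaks, within 1.5 times it), 34 moved and 2 changed sign. The number of constitutive-region peaks moved beyond that only with a score of at least 100 (577 of the 2391 Tcf1 peaks with such a score, median score 127.38). The smaller number and the higher median score follow from that filter itself. Requiring 50% of the peak in the island lowered the H3K27ac shares in DKO CD8, WT CD4 and WT CD8 to 96.9%, 98.9% and 76.5%, and the H3K9ac shares to 62.8%, 88.0% and 47.1%. Islands above the median reads of their list gave 97.3%, 94.4% and 70.3% for H3K27ac, which put DKO CD8 above WT CD4, and 49.8%, 92.4% and 38.8% for H3K9ac. Equal covered length moved H3K27ac in WT CD8 to 78.4% and H3K9ac in WT CD4 to 80.9%. Peaks with a score of at least 100 had H3K27ac at 99.5% in WT CD4 and 87.9% in WT CD8, and H3K9ac at 60.8% in WT CD8.

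Division by total island reads gave median ratios for DKO CD8 over WT CD8, WT CD4 over WT CD8 and DKO CD8 over WT CD4 of 0.77, 0.96 and -0.18 for H3K4me3, 1.84, 1.78 and 0.07 for H3K27ac, and 0.65, -0.61 and 1.23 for H3K9ac. The last 2 changed sign, and the totals they use move with how much was called. With a minimum of 50 reads in either library after scaling, the first 2 comparisons gave 0.09 and 0.15 for H3K4me3. They gave 0.37 and 0.21 for H3K27ac, and 0.27 and 0.59 for H3K9ac, from fewer regions. Reads of only the islands at the peak gave 0.21 for H3K27ac in WT CD4 over WT CD8. The median distance was 314 bp from the centre of the strongest WT CD8 island. For the other moves the cause was not tested. Dropping the need for a WT CD8 H3K4me3 island, added after the data were seen, gave 2499 peaks. The motif share was not run. No paired analysis was possible because each group had 1 library per mark, and for the same reason no replicate could be left out.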

Other observations

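On the autosomes 20.4% to 36.1% of Tcf1 peaks (median 28.6%) were constitutive-region peaks, and 35.2% to 49.6% of H3K4me3 regions of all 3 groups held one (median 40.6%), leaving out regions that had no such peak but another Tcf1 peak or an H3K27me3 island. Chromosome X stood below both ranges. There 9 of 59 peaks (15.3%) were of this kind, and 9 of 67 such regions (13.4%, 6.33 to 24.0) held one. The exact 95% interval of the share of peaks reaches into the autosomal range, and that of the share of regions does not.

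Of the 2451 Tcf1 peaks over an H3K4me3 region of all 3 groups, 225 were left out for an H3K27me3 island at the peak. A further 78 of the 2070 regions with a constitutive-region peak had an H3K27me3 island elsewhere in the region.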
